A study of Drosophila melanogaster with 8 samples.

Results

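The vacuolar proton pump, or V-ATPase, genes of Drosophila melanogaster were followed in RNA of whole larvae of the last instar, at the wandering stage. They were taken as every row of the tables that holds a single gene symbol starting with Vha, which gave 33 of 15904 rows. Of these, 15 are the principal subunit genes, 1 for each subunit of the enzyme and its 2 accessory proteins, and 18 are paralogues that encode another form of one of those subunits. The choice rests on symbols and not on measured levels, although the division into principal genes and paralogues was made with earlier results of these data known. In the current annotation 32 of the 33 symbols are unchanged, and VhaM8.9 is now called ATP6AP2.

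The V-ATPase is a rotary motor in membranes. Its cytosolic V1 sector, with subunits A to H, hydrolyses ATP and turns the membrane sector Vo, with subunits a, c, c″, d and e, which carries protons across the membrane. The pump acidifies lysosomes and endosomes, and synaptic vesicles in neurons, and in insect epithelia such as the Malpighian tubule it sits in the plasma membrane and drives ion and fluid secretion.

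There were 4 genotypes with 2 libraries each, every library from 5 pooled larvae. WT is the strain Oregon R+. The other genotypes are labelled as w1118 stocks that carry Sp and CyO' on the second chromosome and, on the third, hsromega66, a near-null allele of the long non-coding RNA gene hsromega; hsp90GFP, which over-expresses Hsp83, the fly Hsp90 chaperone; or both together, labelled as a recombinant and called the labelled recombinant below because the level of hsromega goes against that label. WT therefore differs from every other genotype in background as well, and these cannot be told apart.

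The authors' tables give 1 FPKM value (fragments per kilobase of transcript at a common library size) per gene and genotype, pooled over both libraries. No spread between libraries can thus be shown beside a level, and the read depth is unknown. FPKM is scaled to gene length, so levels of different genes can be set side by side. A gene is called where the authors' deposited table gives it a q under 0.05, and "rose" and "fell" are used only of called genes. Ratios are ratios of FPKM, and their 95% intervals come from the standard error implied by the deposited statistic. These intervals are wide, and they are wider than the deposited p-values imply. In whole larvae, fewer cells of a type and less RNA per cell cannot be told apart.

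The libraries of the labelled recombinant stood apart. Hsromega was at 236 (WT), 0.767 (hsromega66), 273 (Hsp90GFP) and 77.9 FPKM (labelled recombinant); the last value is far above that of the near-null allele. Hsp83 was at 371, 427, 1616 and 968 FPKM in the same order. The fat body markers Lsp2 and Fbp1 were at 178 and 2.49 FPKM in the labelled recombinant, against at least 9468 and 3496 FPKM in each other genotype. The muscle marker Mhc was at 1531 FPKM there against 174 to 593, while the neuronal markers elav (8.68 against 7.96 to 12.1) and nSyb (5.86 against 4.96 to 5.53) lay near or within the range of the others. The Malpighian tubule genes went both ways, with Irk3 (15.9 against 5.91 to 11.4 FPKM) and CapaR (1.66 against 0.603 to 1.27) highest there and the receptor gene Lkr (1.82 against 1.85 to 2.83) lowest. The glue gene Sgs3 of the salivary gland (0.419 against 342 to 1121 FPKM) and the cuticle gene Lcp1 (979 against at least 5957) were lowest there, while of the midgut markers lab (1.60 against 0.724 to 1.07) was highest there and Jon99Ci (99.3 against 65.2 to 113) was within the range of the others. The part of these tissue markers in the values below was not tested. Whether the larvae of all genotypes were at the same point of the wandering stage was not tested either.

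The principal genes were abundant in every genotype and the paralogues were rare. In WT the principal genes ran from 74.0 FPKM for Vha44 to 663 FPKM for Vha16-1, with a median of 136, and 95.7% of all rows lay below that median. The paralogues ran from 0.613 FPKM for Vha16-4 to 49.0 FPKM for Vha100-1, with a median of 3.14. All 18 together held 4.58% of the summed Vha FPKM (WT), 4.96% (hsromega66), 5.06% (Hsp90GFP) and 3.70% (labelled recombinant). In each genotype the principal gene was the highest of its subunit's genes.

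The Vha genes are spread over 5 chromosome arms, with 6 on 2L, 8 on 2R, 5 on 3L, 12 on 3R and 2 on X. The annotation gives the principal genes a median of 7 distinct exons, and only Vha36-1 and Vha14-1 have 1. The paralogues have a median of 2 distinct exons, and 7 of the 18 have 1. These are Vha100-3, Vha16-2, Vha16-4, Vha16-5, VhaPPA1-2, VhaM9.7-c and VhaM9.7-d. Several paralogues lie beside another Vha gene, and their values are compared with those neighbours below.

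The first question was what the catalytic V1 sector did across genotypes. All 8 principal V1 genes were higher in the labelled recombinant than in each of the other genotypes, and no one of them was called. Vha68-2, the catalytic subunit A that binds and hydrolyses ATP, was at 134 (WT), 159 (hsromega66), 153 (Hsp90GFP) and 363 FPKM (labelled recombinant). Vha55, subunit B, was at 202, 188, 211 and 467 FPKM in the same order. The single high value in each gene stood beside 3 values within 1.19-fold of each other for Vha68-2 and within 1.12-fold for Vha55. The ratio to WT of 2.71 for Vha68-2 (95% interval 0.850 to 8.65) had q = 0.142 in the authors' deposited table. That of 2.31 for Vha55 (0.641 to 8.33) had q = 0.332 in the authors' deposited table.

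The stalk and regulatory subunits of V1 were likewise highest in the labelled recombinant, with ratios to WT near 2. Among those of the peripheral stalks, Vha26 (subunit E) was at 273 (WT), 285 (hsromega66), 268 (Hsp90GFP) and 543 FPKM (labelled recombinant). Vha13 (subunit G) was at 371, 376, 326 and 735 FPKM, and Vha44 (subunit C) at 74.0, 76.6, 74.4 and 151 FPKM. In each of these genes 3 genotypes lay close together and the labelled recombinant lay apart, at 1.99, 1.98 and 2.04 times WT. The deposited locus of Vha44 is 1.39 times as long as the annotated gene and takes in Hmgs on the other strand. Whether reads of Hmgs entered the value was not tested. Of the central shaft that turns inside the A and B ring, Vha36-1 (subunit D) was at 131, 148, 122 and 278 FPKM, a ratio to WT of 2.13. Vha14-1 (subunit F) was at 136, 167, 142 and 268 FPKM, a ratio of 1.97. VhaSFD, the regulatory subunit H, was at 84.6, 86.6, 84.1 and 173 FPKM, a ratio of 2.05. The 3 values outside the labelled recombinant differed least for VhaSFD, Vha44 and Vha26 among the V1 genes and most for Vha14-1, by up to 1.23-fold.

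All 5 principal genes of the membrane sector Vo were highest in the labelled recombinant too, with more spread among the other genotypes than in V1, by a median of 1.26-fold against 1.14-fold. Vha16-1 encodes the proteolipid c, which forms most of the rotating ring, and it had the highest level of any Vha gene, at 663 (WT), 669 (hsromega66), 701 (Hsp90GFP) and 1292 FPKM (labelled recombinant). VhaPPA1-1, the proteolipid c″ of the same ring, was at 104, 174, 115 and 279 FPKM. The value of VhaPPA1-1 in hsromega66 was 1.67 times WT, the widest gap of any principal gene outside the labelled recombinant, and was not called, with q = 0.598 in the authors' deposited table. Vha100-2, the principal form of subunit a, which lines the proton path, was at 91.2, 115, 106 and 235 FPKM. Its deposited locus is 1.13 times as long as the annotated gene and takes in Vti1b, with the same limit as for Vha44. VhaAC39-1, subunit d, was at 134, 133, 115 and 235 FPKM. VhaM9.7-b, the small subunit e, was at 215, 268, 189 and 347 FPKM. The ratios to WT in the labelled recombinant were 1.95 for Vha16-1, 2.67 for VhaPPA1-1, 2.58 for Vha100-2, 1.75 for VhaAC39-1 and 1.61 for VhaM9.7-b, the smallest of all principal genes. For VhaPPA1-1 and Vha100-2 q was 0.136 and 0.230 in the authors' deposited table, and the other 3 Vo genes had q of 0.606 to 0.637 in the authors' deposited table.

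Both accessory genes lay highest in the labelled recombinant as well. VhaAC45, a membrane protein that accompanies the assembled pump, was at 185 (WT), 250 (hsromega66), 193 (Hsp90GFP) and 373 FPKM (labelled recombinant). VhaM8.9, the fly counterpart of the prorenin receptor, was at 155, 180, 166 and 272 FPKM. Neither was called, with ratios to WT of 2.01 and 1.76.

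**Figure D1:**
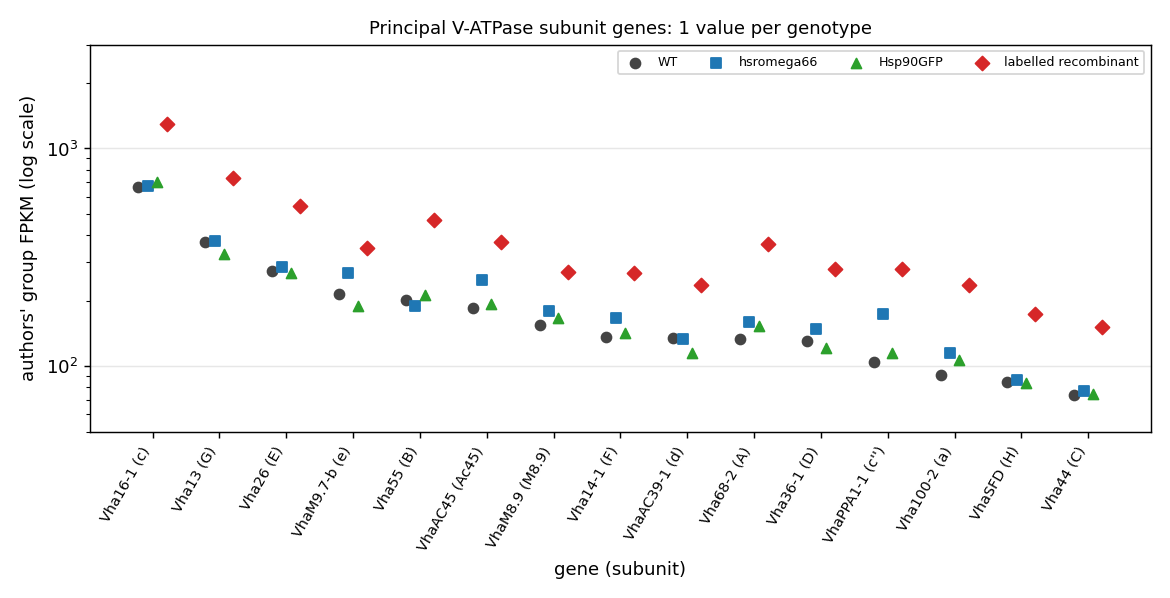
Group FPKM (log scale, y axis) of the 15 principal V-ATPase subunit genes (x axis, with the subunit in brackets), 1 value per genotype and no error bars because the tables hold none. For every gene the labelled recombinant (diamonds) lies above the other 3 genotypes, while those 3 differ by 1.03 to 1.67-fold. It is at 1.61 to 2.71 times WT, 1.29 to 2.49 times hsromega66 and 1.64 to 2.42 times Hsp90GFP.

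As a list, the 15 principal genes were higher in the labelled recombinant than in all 3 other genotypes in 15 of 15 cases, with a median ratio to WT of 2.01 and a range of 1.61 to 2.71. The median was 2.04 in V1, 1.95 in Vo and 1.88 in the accessory pair. Among the other 3 genotypes the highest value of a gene exceeded the lowest by a median of 1.16-fold. The median log2(FPKM + 1) difference of the list from WT was 1.00, beside -0.07 over all 12656 rows tested, of which 46.1% lay above WT. Among 1770 rows tested at a mean of at least 50 FPKM over all 4 genotypes, 66.6% lay above WT, with a median ratio of 1.37. That mean includes the labelled recombinant, so rows that are high there pass it more easily, which raises both values. The summed FPKM of all rows was 1.28 times WT, and the sum of the principal genes was 2.04 times WT (2953 and 6011 FPKM). A ratio in the range of the principal genes was not rare, since 1410 of the 12656 rows (11.1%) fell in it.

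None of the 15 principal genes was called against WT, where 8.66% of all rows tested were called in either direction and 4.61% higher. The smallest ratio called in that comparison was 2.93, or 3.26 among rows with at least 50 FPKM in both groups, and no principal gene reached either. At an unadjusted p under 0.05 there were 3 of 15, Vha68-2, VhaPPA1-1 and Vha100-2, beside 18.0% of all rows. The difference of any 1 principal gene was therefore not separable from the authors' replicate error. The comparisons with hsromega66 and with Hsp90GFP share the labelled recombinant with this one. Their median ratios for the list were 1.91 (1.29 to 2.49) and 2.03 (1.64 to 2.42), with 0 of 15 called in each and 1 and 3 of 15 at an unadjusted p under 0.05.

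Proportions between principal genes are given here relative to Vha55. On that scale Vha16-1 was at 3.28 (WT), 3.56 (hsromega66), 3.32 (Hsp90GFP) and 2.77 (labelled recombinant). Vha13 was at 1.84, 2.00, 1.54 and 1.57 times Vha55, and Vha44 at 0.366, 0.408, 0.352 and 0.322 times. The order of these genes was thus kept across genotypes, with Vha16-1 above Vha13 and Vha13 above Vha44. It was not kept for all principal genes. VhaM9.7-b was at 1.07, 1.43, 0.892 and 0.743 times Vha55, and VhaAC45 at 0.917, 1.33, 0.911 and 0.798 times. VhaPPA1-1 was highest relative to Vha55 in hsromega66, at 0.926, against 0.516 in WT, 0.545 in Hsp90GFP and 0.596 in the labelled recombinant. These proportions carry no error, and they were not tested.

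The paralogues did not share the high values of the principal genes in the labelled recombinant. There 13 of 18 lay below all other genotypes, 4 lay above all of them and VhaM9.7-c lay between. Their median log2(FPKM + 1) difference from WT was -0.85, beside -0.07 over all rows tested. Against WT, 2 rose and 1 fell, so that 3 of the 33 Vha genes were called in that comparison, beside 8.66% of all rows. A count of 3 is near that share, so the number of calls does not set the Vha genes apart, and the calls below are those of single genes.

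**Figure D2:**
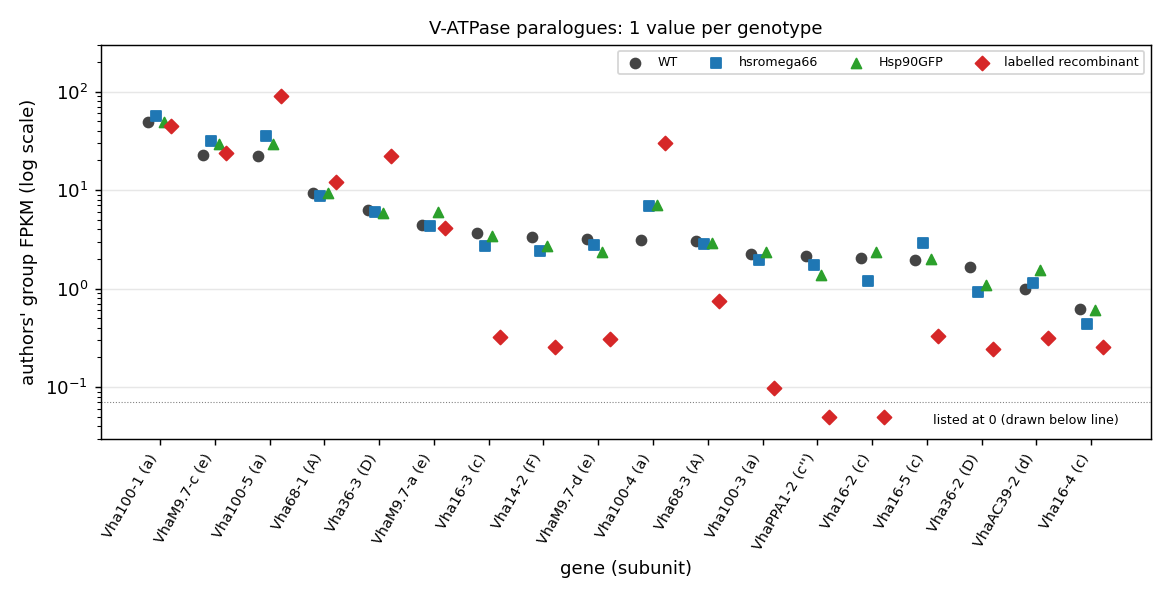
Group FPKM (log scale, y axis) of the 18 V-ATPase paralogues (x axis, subunit in brackets), 1 value per genotype and no error bars. In the labelled recombinant (diamonds) Vha100-5, Vha36-3, Vha100-4 and Vha68-1 lie above the other genotypes and 13 genes lie below them; Vha16-2 and VhaPPA1-2 are listed at 0 there and are drawn below the dotted line.

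The called rises were forms of subunit a and subunit D. Vha100-4, a form of subunit a (FBgn0038613, dm6 3R 18386841 to 18389805, minus strand, 4 exons), was at 3.11 (WT), 6.92 (hsromega66), 7.04 (Hsp90GFP) and 29.9 FPKM (labelled recombinant). It rose 9.61-fold over WT (95% interval 2.72 to 34.0; q = 0.00144 in the authors' deposited table). Over hsromega66 it rose 4.32-fold and over Hsp90GFP 4.25-fold, with q = 0.0185 and q = 0.0306 in the authors' deposited table. The deposited locus of Vha100-4 is 1.34 times as long as the annotated gene and takes in cona on the other strand; whether reads of cona entered the value was not tested.

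Vha100-5, also a form of subunit a (FBgn0032373, 2L 11738948 to 11744524, plus strand, 5 exons), was at 22.0 (WT), 35.7 (hsromega66), 29.2 (Hsp90GFP) and 91.2 FPKM (labelled recombinant). It rose 4.15-fold over WT (1.27 to 13.6; q = 0.0266 in the authors' deposited table). Over hsromega66 and Hsp90GFP its ratios of 2.55 and 3.13 missed the threshold (q = 0.215 and 0.0911 in the authors' deposited table). An annotated antisense RNA, CR44144, overlaps Vha100-5. The library kit keeps strand, but the sources used here do not say whether the counting used it, so reads of the 2 genes may not be separated.

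Vha36-3, a form of the shaft subunit D (FBgn0040377, X 2579091 to 2580560, minus strand, 5 exons), was at 6.32 (WT), 5.94 (hsromega66), 5.87 (Hsp90GFP) and 22.2 FPKM (labelled recombinant). The 3 other genotypes were within 1.08-fold of each other. Vha36-3 rose 3.74-fold over hsromega66 and 3.79-fold over Hsp90GFP (q = 0.0362 and 0.0399 in the authors' deposited table). Over WT its ratio of 3.52 (1.12 to 11.0) missed the threshold by little, with q = 0.0510 in the authors' deposited table. Vha68-1, a form of the catalytic subunit A, was the other paralogue above all genotypes, at 9.42, 8.65, 9.42 and 12.1 FPKM, and its ratio to WT of 1.28 was not called.

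The called fall was Vha16-2, a form of the proteolipid c with 1 exon (FBgn0028668, 3L 11474958 to 11475552, plus strand). It was at 2.06 FPKM in WT, 1.20 in hsromega66 and 2.35 in Hsp90GFP and was listed at 0 in the labelled recombinant. It fell against all 3 genotypes, with q = 0.00372, 0.00565 and 0.00144 in the authors' deposited table, and no fold is given against a group listed at 0. An annotated antisense RNA, CR46049, overlaps Vha16-2, with the same limit on strand as for Vha100-5. VhaPPA1-2, a form of c″, was also listed at 0 there and at 2.14, 1.72 and 1.36 FPKM in WT, hsromega66 and Hsp90GFP, but was not called, with q = 0.676 against WT in the authors' deposited table. Its deposited locus is 2.29 times as long as the gene and takes in CG3817.

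Several rare V-ATPase paralogues of flies are known mainly from the testis. There were 14 paralogues with a mean below 7 FPKM over WT, hsromega66 and Hsp90GFP. Besides Vha100-4 and Vha36-3, the other 12 all lay below those genotypes in the labelled recombinant. Low values were more common there among all rows as well. There 9931 rows reached 1 FPKM, against 11159 (WT), 11097 (hsromega66) and 11176 (Hsp90GFP), and 2067 rows were listed at 0, against 1303, 1473 and 1307. Whether the rare paralogues differ from other rows at such levels was not tested. Vha16-3, a form of c, was at 3.66 (WT), 2.72 (hsromega66), 3.39 (Hsp90GFP) and 0.322 FPKM (labelled recombinant). Vha14-2, a form of the shaft subunit F, was at 3.32, 2.38, 2.73 and 0.252 FPKM. Vha68-3, a form of A, was at 3.02, 2.86, 2.92 and 0.754 FPKM. In these 3 genes the first 3 genotypes lay near each other and the last well below, yet q against WT was 0.236, 0.150 and 0.1001 in the authors' deposited table, and none was called.

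The other forms of c were at the same low levels. Vha16-5 was at 1.94 (WT), 2.91 (hsromega66), 2.01 (Hsp90GFP) and 0.332 FPKM (labelled recombinant). Vha16-4 was at 0.613, 0.436, 0.604 and 0.255 FPKM, and it was not tested against hsromega66 in the authors' deposited table. Of the remaining rare forms, VhaM9.7-d (subunit e) was at 3.16, 2.74, 2.34 and 0.308 FPKM. These genes lay below 1 FPKM in the labelled recombinant, as did the next 3. Vha36-2 (subunit D) was at 1.67, 0.913, 1.09 and 0.244 FPKM. VhaAC39-2 (subunit d) was at 0.990, 1.13, 1.55 and 0.315 FPKM. Vha100-3 (subunit a) was at 2.22, 1.93, 2.36 and 0.0980 FPKM, and its deposited locus is 27.6 times as long as the gene because it takes in sano. VhaM9.7-a (subunit e) differed least, at 4.39, 4.29, 5.97 and 4.07 FPKM.

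Markers of the testis were also lower in the labelled recombinant, by unequal amounts. All 28 testis markers measured lay below WT in the labelled recombinant, and 9 fell, beside 4.05% of all rows called lower. Their ratios to WT ran from 0.0234 for dj to 0.952 for mia, with a median of 0.0489. The markers nht, tomb and bol were at 0.758, 0.742 and 0.704 times WT, and neither these nor mia were called. The summed FPKM of the list was 583 (WT), 506 (hsromega66), 427 (Hsp90GFP) and 49.0 (labelled recombinant), and no marker was listed at 0 in any genotype. Mst87F, a sperm tail protein gene and the marker at the highest level in WT, fell from 85.6 to 5.14 FPKM, and Mst84Dc fell from 63.5 to 1.79 FPKM. The others that fell were djl, Mst98Ca, loopin-1, S-Lap1, S-Lap3, S-Lap7 and S-Lap8. Mst84Db fell in Hsp90GFP against WT, from 57.4 to 12.6 FPKM. The summed FPKM of the 14 rare paralogues was 38.6, 38.1, 41.6 and 59.1 in the same order, highest where that of the testis list was lowest, with Vha100-4 and Vha36-3 at 29.9 and 22.2 FPKM of the last sum. The part of the testis in the low values of the Vha paralogues was not tested.

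Of the 4 paralogues at higher levels, Vha100-1 and VhaM9.7-c lay near WT in the labelled recombinant. Vha100-1, the form of subunit a known from neurons and synaptic vesicles, was at 49.0 (WT), 57.1 (hsromega66), 48.6 (Hsp90GFP) and 44.7 FPKM (labelled recombinant). Its ratio to WT was 0.912 (0.297 to 2.80), and the neuronal markers elav and nSyb also lay near the other genotypes. VhaM9.7-c, a form of e, was at 22.8, 31.4, 29.2 and 23.9 FPKM. Its deposited locus is 23.5 times as long as the gene and takes in Teh2, Teh3 and Teh4 on the same strand, so its value is uncertain.

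**Figure D3:**
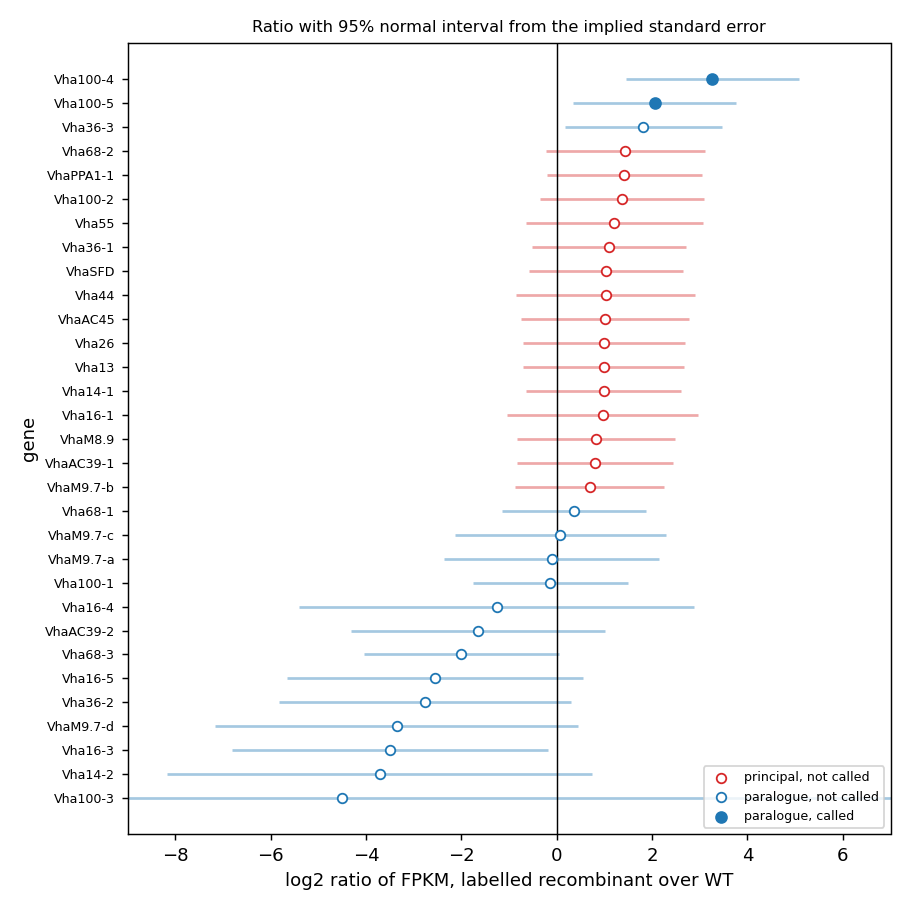
Log2 ratio of FPKM in the labelled recombinant over WT (x axis) for the Vha genes above 0 in both (y axis), with 95% normal intervals from the implied standard error. Filled points are genes called in the authors' deposited table, Vha100-4 and Vha100-5; every interval of a principal gene (red) crosses 0, the interval of Vha100-3 runs past both ends of the axis, and Vha16-2 and VhaPPA1-2, listed at 0, are not drawn.

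Among the subunits with several genes, the make-up of subunit a differed most between genotypes. Vha100-2 held 54.4% of its summed FPKM (WT), 53.1% (hsromega66), 54.9% (Hsp90GFP) and 58.6% (labelled recombinant). The share of Vha100-1 was 29.3%, 26.3%, 25.1% and 11.2% in the same order. Vha100-5 held 13.1%, 16.5%, 15.1% and 22.8%, and Vha100-4 held 1.86%, 3.19%, 3.64% and 7.46%. The neuronal form thus had its lowest share, and Vha100-4 and Vha100-5 their highest, in the labelled recombinant. The depth behind these shares is unknown, so no counting interval is given.

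For the other subunits the principal gene held most of the FPKM. Vha16-1 held 98.8% of subunit c (WT), 98.9% (hsromega66), 98.8% (Hsp90GFP) and 99.9% (labelled recombinant). Vha68-2 held 91.5%, 93.3%, 92.5% and 96.6% of subunit A. VhaM9.7-b held 87.7%, 87.5%, 83.4% and 92.5% of subunit e, whose sum includes the uncertain value of VhaM9.7-c. Each of these shares was highest in the labelled recombinant, whereas in subunit D the principal gene had its lowest share there, with Vha36-3 at 7.40% against 4.56%, 3.83% and 4.57% in WT, hsromega66 and Hsp90GFP.

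**Figure D4:**
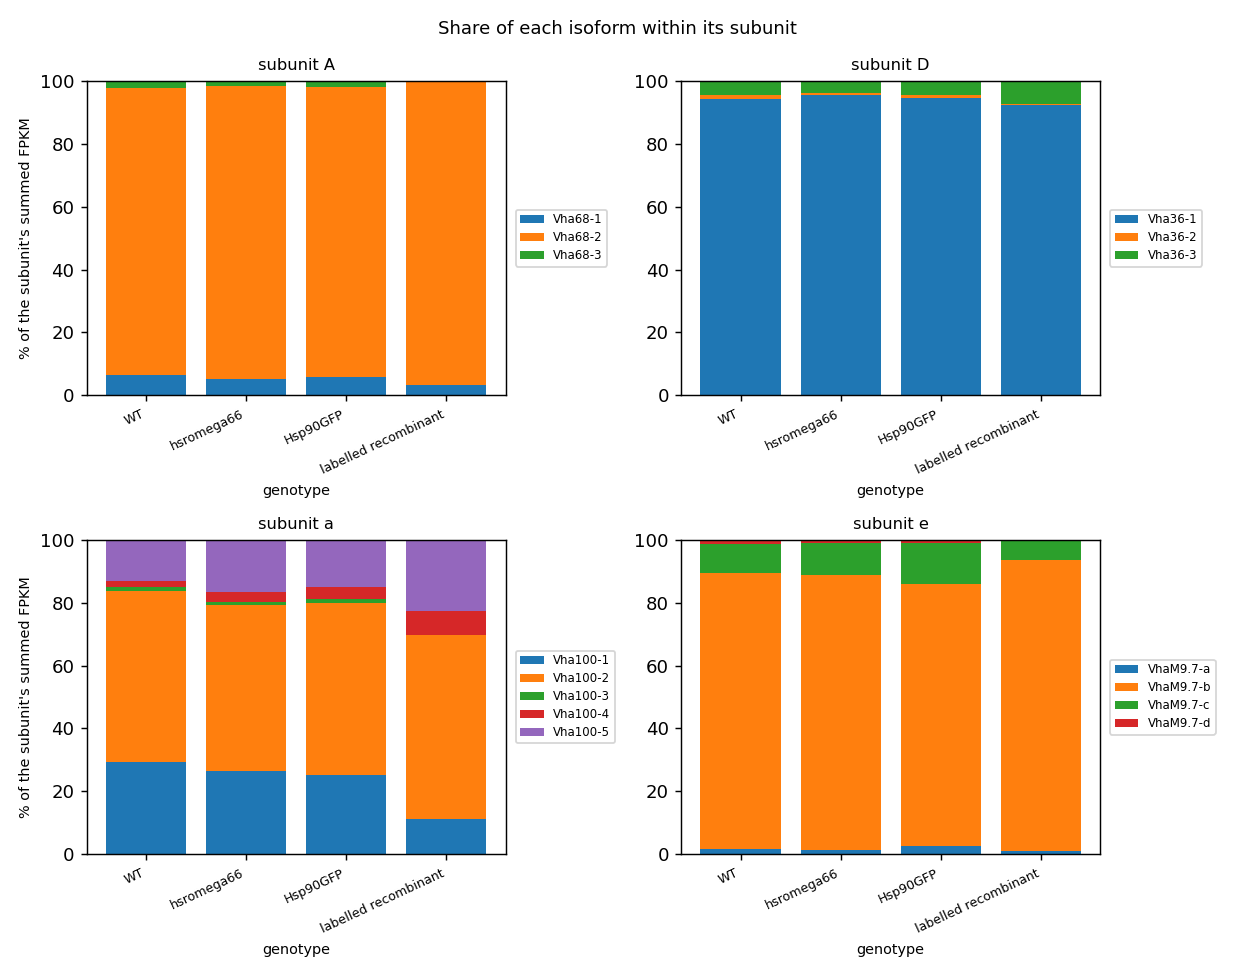
Share of each gene in the summed FPKM of its subunit (y axis, percent) for subunits A, D, a and e in each genotype (x axis); each bar adds to 100 and carries no error because the tables hold 1 value per genotype. In subunit a the share of Vha100-1 is 29.3% in WT and 11.2% in the labelled recombinant, and those of Vha100-4 and Vha100-5 are higher there.

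Of 4 pairs of neighbouring Vha genes on the same strand, 2 differed from WT in opposite directions and 2 in the same direction. Vha68-2 and Vha68-3 lie 178 bp apart on 2L, and their ratios of the labelled recombinant to WT were 2.71 and 0.250. VhaPPA1-1 lies 2052 bp from VhaPPA1-2 on 3R, with a ratio of 2.67 while its neighbour was listed at 0. Vha100-2 and Vha100-4 lie 517 bp apart on 3R and were both higher, at 2.58 and 9.61 times WT. Vha16-3 and Vha16-2 lie 985 bp apart on 3L and were both lower. Of these 8 genes only Vha100-4 and Vha16-2 were called.

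The single genotypes were also compared with WT. Each differs from WT in background as well as in its allele, so a difference cannot be assigned to the allele. None of the 33 Vha genes was called in hsromega66 against WT, where 1.24% of all rows tested were called, and none in Hsp90GFP against WT, where 1.09% were called. By the same authors' test none had an unadjusted p under 0.05 either, beside 3.49% and 3.06% of all rows. Of all rows tested, 45.4% lay above WT in hsromega66 and 44.8% in Hsp90GFP. At a mean of at least 50 FPKM these shares were 59.2% and 49.5%, with median ratios of 1.05 and 0.996. In hsromega66 13 of 15 principal genes lay above WT (14 after centring on the median of all rows), with ratios of 0.930 for Vha55 to 1.67 for VhaPPA1-1 and a median of 1.13. In Hsp90GFP 9 of 15 lay above WT (11 after centring), with ratios of 0.859 for VhaAC39-1 to 1.17 for Vha100-2 and a median of 1.04. Vha100-4 was the member highest over WT in both, at 2.22 (0.605 to 8.18) and 2.26 (0.590 to 8.66) times WT, with q = 0.421 and 0.460 in the authors' deposited table. At the other end, Vha36-2 was at 0.547 times WT in hsromega66 and VhaPPA1-2 at 0.638 times in Hsp90GFP.

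Hsp90GFP was also set directly against hsromega66. None of the Vha genes was called, beside 0.997% of all rows, and none had an unadjusted p under 0.05 by the authors' test, beside 3.10% of all rows. VhaPPA1-1 was the principal gene with the widest gap, at 115 FPKM in Hsp90GFP and 174 in hsromega66, a ratio of 0.662 (0.221 to 1.98). Vha16-2 was at the other end, at 2.35 and 1.20 FPKM.

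Against hsromega66 the labelled recombinant had 2 Vha genes called higher, Vha100-4 and Vha36-3, and 1 lower, Vha16-2, of 32 tested. Of all rows, 7.3% were called, 3.68% higher and 3.63% lower. Against Hsp90GFP these 3 genes were called of 33 tested in those directions, beside 6.66% of all rows, 3.51% higher and 3.14% lower. These comparisons and that with WT share the labelled recombinant, so their counts are not independent. The called share of the Vha genes was near that of all rows in each.

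The design also allows a test of whether the difference between the labelled recombinant and Hsp90GFP departs from that between hsromega66 and WT. The differences are not alike, because hsromega66 and WT differ in background as well. The level of hsromega also goes against the label of the recombinant. A departure can therefore not be assigned to the combination of the alleles. Of 31 Vha genes that could be tested, 0 were called by a z test on the implied errors with Benjamini-Hochberg adjustment, beside 0.471% of 11893 rows, and 0 had an unadjusted p under 0.05. The departure on the log2 scale was above 0 for all 15 principal genes, with a median of 0.96 and a range of 0.50 to 1.25, and for 4 of 16 paralogues. It contains the difference between the labelled recombinant and Hsp90GFP given above, so it is not a separate result. In that comparison 67.7% of rows at a mean of at least 50 FPKM lay higher in the labelled recombinant, with a median ratio of 1.40. The share of all rows with a departure above 0 is not given here. For Vha55 the departure was 1.25 with a standard error of 1.30, so a departure of this size was not detectable. The implied errors are wider than the deposited p-values imply, so this test may miss departures. Vha36-3 had the highest value, 2.01 with a standard error of 1.23.

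Genes that work with the pump were followed from lists of the same kind, and the list of mitochondrial ATP synthase, a related rotary enzyme that makes ATP, had the median ratio to WT closest to that of the principal genes in the labelled recombinant. In hsromega66 it went the other way, with 12 of 13 members below WT and a median ratio of 0.840, none called, against 13 of 15 above and 1.13 for the principal genes. Of all rows tested there, 1.24% were called and 45.4% lay above WT, or 59.2% at a mean of at least 50 FPKM. Of its 13 members measured, 12 lay above WT in the labelled recombinant, with a median ratio of 2.29 and none called, beside 8.66% of all rows. Among rows at a mean of at least 50 FPKM, 66.6% lay above WT there, with a median ratio of 1.37. ATPsyn-beta was at 481, 380, 540 and 1538 FPKM in WT, hsromega66, Hsp90GFP and the labelled recombinant, and CG4692 (ATPsynF) at 317, 279, 342 and 700 FPKM. The alpha subunit gene blw was at 187, 137, 218 and 556 FPKM. It rose 4.06-fold over hsromega66 (q = 0.0144 in the authors' deposited table), a comparison in which 7.3% of all rows were called. The beta form ms(3)72Dt was the member below WT, at 2.62 and 0.740 FPKM.

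Epithelial ion transport genes lay above WT in 18 of 25 cases in the labelled recombinant, with a median ratio of 1.33, and 2 rose and none fell, beside 4.61% of all rows called higher and 4.05% lower. Nha2, a sodium/proton exchanger gene, rose 6.73-fold, at 3.66, 7.48, 5.48 and 24.6 FPKM in the order given above, and it also rose over hsromega66 (3.29-fold) and Hsp90GFP (4.50-fold). CG4019 (Eglp4), an aquaporin family gene, rose 4.12-fold, at 50.8, 77.0, 65.4 and 209 FPKM. Atpalpha, the sodium pump alpha subunit, was at 121 FPKM in WT and 113 in the labelled recombinant, and CG7777 (Prip) at 85.2 and 34.1 FPKM, with neither called. CG7777, an aquaporin gene, and the sodium/proton exchanger gene Nhe2 (24.6 FPKM in WT and 12.0 in the labelled recombinant) were lower there than in any other genotype, and neither was called. The Vha principal genes thus had a higher median ratio than this list, a difference that was not tested.

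Lysosomal protein genes, whose products work in the compartment that the pump acidifies, did not share one direction. In the labelled recombinant 8 of 15 lay above WT, with a median ratio of 1.09, and 1 rose and 1 fell, beside 4.61% of all rows called higher and 4.05% lower. CG31148 (Gba1a), a glucocerebrosidase gene, rose 15.8-fold, at 3.57, 11.3, 4.92 and 56.6 FPKM, and it also rose over hsromega66 and Hsp90GFP. The protease gene cathD fell 4.62-fold, at 774, 823, 555 and 167 FPKM, and it also fell against hsromega66. Lamp1, a lysosomal membrane protein gene, was at 322 FPKM in WT and 260 in the labelled recombinant.

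Assembly and regulatory genes lay on both sides of WT in the labelled recombinant, with 6 of 11 above it, ratios of 0.618 to 1.55, a median ratio of 1.06 and none called. Of all rows tested, 46.1% lay above WT and 8.66% were called, so no call among 11 genes says little. Mitf, the fly transcription factor of the TFEB family known to act on V-ATPase and lysosomal genes, was at 30.8 (WT), 32.4 (hsromega66), 32.6 (Hsp90GFP) and 40.4 FPKM (labelled recombinant). Rbcn-3A and Rbcn-3B, which assist assembly of V1 on Vo, were at 10.03 and 8.45 FPKM in WT and 15.3 and 13.1 FPKM in the labelled recombinant. The members at the highest level in WT, CG5110 (Lamtor3) and CG14977 (Lamtor4), were at 52.1 and 51.6 FPKM in WT and at 32.2 and 34.4 FPKM in the labelled recombinant. None of the members of these 4 lists was called in hsromega66 or Hsp90GFP against WT, beside 1.24% and 1.09% of all rows.

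**Figure D5:**
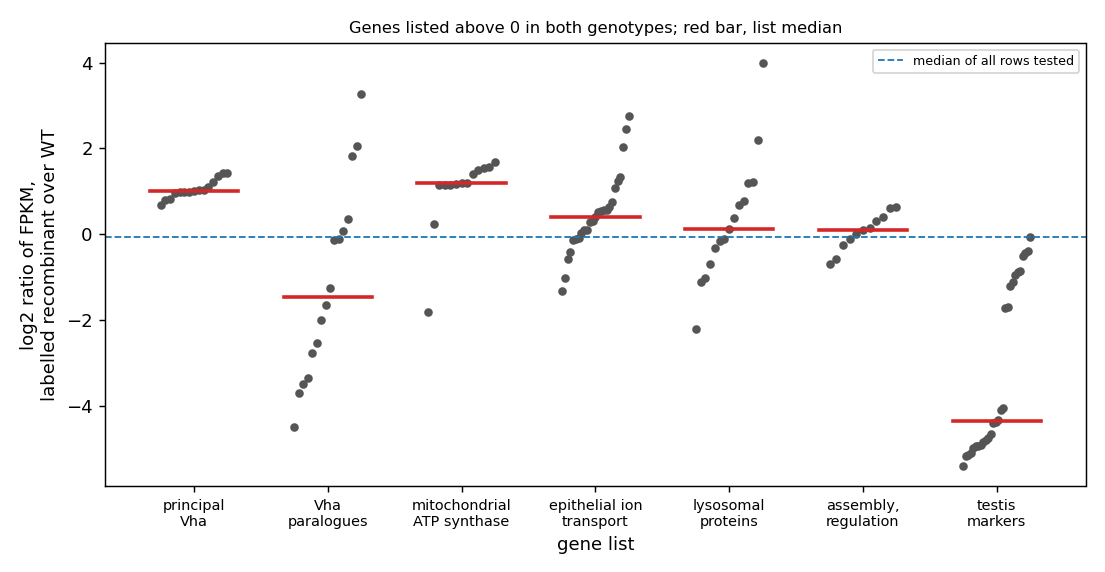
Log2 ratio of FPKM in the labelled recombinant over WT (y axis) for each gene above 0 in both, by list (x axis); red bars are list medians and the dashed line is the median of all rows tested. The principal Vha genes lie between ratios of 1.61 and 2.71, the paralogues spread on both sides of 0, and the testis markers lie below it.

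The 33 Vha genes together held 0.519% of the summed FPKM of all rows in the labelled recombinant, against 0.330% in WT, 0.330% in hsromega66 and 0.350% in Hsp90GFP. CG31030, which the current annotation names VhaAC45RP but which the symbol rule leaves out, was at 3.53 (WT), 2.12 (hsromega66), 2.13 (Hsp90GFP) and 3.23 FPKM (labelled recombinant) and was not called.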

How the data were processed

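Ribosomal RNA was removed with a stranded human/mouse/rat kit and paired reads of 50 bp were made, per the labels' protocols. Per the submitters' processing notes, TopHat, Bowtie, Cufflinks and Cuffdiff 2.1.1 were used with the build dm6. The authors deposited 6 tables, 1 for each pair of genotypes, whose levels are FPKM per the file headers, 1 value per genotype. Cuffdiff's deposited statistic has the unit score. The deposited p-value (5e-05 at the lowest) and q-value were used as given. Reads shared by similar paralogues may be split between them, and this was not tested.

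From these values a gene was called at a deposited q-value under 0.05 with a test status of OK. Ratios are of FPKM. The medians use log2(FPKM + 1), which understates differences of low genes. The implied standard error divides the log2 ratio by that statistic, and 95% intervals are normal. A z test with Benjamini-Hochberg adjustment gave the non-additive differences. It was run on simulated data whose noise was drawn from the same implied errors, which cannot show whether those errors are right. The members and the 5 other lists (92 of 105 symbols matched) were chosen with earlier results of these data known. Every Vha member is given, and from other lists every member called in any comparison and the 2 highest in WT. The tissue markers, Mitf, Nhe2, Rbcn-3A, Rbcn-3B, ms(3)72Dt and CG31030 were named beside that rule. So were the testis markers dj, mia, nht, tomb and bol. Positions and names come from the Ensembl release 115 annotation of dm6. No sequences were used here. Tools were Python 3.11.15 with pandas 2.3.3, numpy 2.4.6, matplotlib 3.10.9 and scipy 1.17.1.

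Alternatives were q under 0.01, Benjamini-Hochberg adjustment of the deposited p-values within or over tables, a pseudocount of 0.1, plain ratios, a minimum of 1 FPKM, centring on the median of all rows, principal genes or paralogues alone, merged rows counted too (0 of 637 held a Vha symbol), and, added after seeing the data, leaving out the 6 members whose deposited locus exceeds 1.1 times the annotated gene.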

Additional observations from a re-analysis of the deposited data

How the results depend on the processing

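The tables hold 1 value per genotype, so no replicate could be left out. No paired analysis was possible because the tables hold no value per library. The depth is unknown and sets no stated limit on the values near 0. Over all 33 Vha genes the median log2(FPKM + 1) difference from WT in the libraries labelled as the recombinant was 0.80, but it was 1.00 for the principal genes alone and -0.85 for the paralogues alone. The respective medians were 0.58, 0.93 and -0.66 against hsromega66, and 0.88, 1.02 and -0.85 against Hsp90GFP, so a single median of all Vha genes hides opposite directions. In hsromega66 against WT they were 0.03, 0.18 and -0.094, and in Hsp90GFP against hsromega66 the median was -0.06, with 0.067 for the paralogues alone. The pseudocount, plain ratios, the minimum of 1 FPKM, centring and leaving out the 6 members of long deposited locus moved no median of all 33 genes by more than 0.1. The median of the paralogues alone did move, against WT to -1.14 at 1 FPKM or more and to -1.46 with plain ratios, against hsromega66 to -1.14 and -1.31, and against Hsp90GFP to -1.16 and -1.60. Plain ratios leave out Vha16-2 and VhaPPA1-2, listed at 0 in the labelled recombinant. A pseudocount of 0.1 moved 56 of 198 single differences by more than 0.1, by up to 2.87, and 7 by more than the larger of 0.1 and their implied standard error, all 7 with no such error; centring moved none by more than 0.1. The count of called Vha genes against hsromega66 was 1 at q under 0.01 (4.16% of all rows) in place of 3 in the authors' deposited table. Against Hsp90GFP it was 1 at q under 0.01 (3.91% of all rows), and 1 (5.44% of all rows) with Benjamini-Hochberg adjustment of the deposited p-values over all 75427 tests, in place of 3. Against WT it was 2 to 4 under the different rules. Of all rows in that comparison, 5.34% were called at q under 0.01. With Benjamini-Hochberg adjustment it was 8.96% within the comparison and 7.06% over all tests. Without the 6 members of long locus, an alternative chosen after seeing the data, 2 were called in each of these 3 comparisons, because Vha100-4 is among the 6. The share of all rows called at the deposited q under 0.05 was 8.66% against WT, 7.3% against hsromega66 and 6.66% against Hsp90GFP. The non-additive count was 0 under each alternative.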
